A study of Mus musculus with 15 samples.

Results

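The genes named Clec in the mouse make up much of the C-type lectin receptor family, whose proteins share a lectin-like fold outside the cell. Members were taken by name, as all genes whose single symbol on the array starts with Clec followed by a number. The array held 31 such genes of 22180 genes with a symbol of their own, each read by 1 probe set, and 25 of the 31 were among the 16055 genes tested. A gene was tested where its log2 signal lay above the 40th percentile of all probe sets of the array on at least 3 arrays. That percentile lay between 5.05 and 5.25 log2 on the 15 arrays, and a signal at or under it is called near background here.

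The study measured RNA with 15 Affymetrix arrays in 5 groups of 3, all from C57Bl/6 mice according to the strain label. GFW and RB are both Mo CD34+ cells of wild-type mice given G-CSF, a cytokine that moves blood-forming and myeloid cells out of the marrow. They were isolated from the spleen as cells negative for CD4, CD8, Ly6G, B220 and Ter119 and positive for CD11b and CD34. GFK is the same sorted population from G-CSF treated mice labelled iNOS knockout, and GFE is the wild-type population after 3 days of culture in Stemspan with Flt3 ligand and SCF. MDSC are Ly6C+CD11b+ myeloid-derived suppressor cells grown from C57Bl/6 bone marrow with GM-CSF and IL-13 beside G-CSF. All 5 groups had therefore met G-CSF, in the animal or in the dish, and the monocytes and progenitors of untreated mice were not analysed here. The sources used here give no ages and no doses. The labels do not say whether the 3 arrays of a group came from separate mice or cultures, so the p-values here reflect only how far these arrays scatter, and that scatter may be technical. They also do not say whether GFW or RB was the input of the culture.

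C-type lectin receptors on myeloid cells bind sugars and lipids of fungi, bacteria and dying cells. Activating members carry a signalling motif of their own or pair with an adaptor such as FcRγ (Fcer1g) or DAP12 (Tyrobp), recruit the kinase Syk and act through Card9, Bcl10 and Malt1 on NF-κB. Inhibitory members carry a motif that recruits the phosphatases Ptpn6 and Ptpn11, and the Clec2 proteins are ligands read by NKR-P1 receptors of natural killer cells. Many of the genes lie in clusters on mouse chromosome 6, where the RefSeq table of GRCm38.p6 placed 23 of the 31.

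Some facts of the arrays bear on every comparison below. The sort markers stood apart between groups that share a label. Itgam (CD11b) averaged 11.67 log2 in GFW, 11.72 in GFK, 11.38 in RB, 7.94 in GFE and 10.32 in MDSC. Cd34 averaged 7.19 log2 in GFW, 7.27 in GFK, 5.92 in RB, 11.28 in GFE and 6.88 in MDSC. Ly6g, the neutrophil antigen used to remove cells, averaged 12.19 log2 in GFW, 12.08 in GFK, 6.28 in RB, 4.22 in GFE and 5.80 in MDSC. The mean of 9 neutrophil markers lay between 11.31 and 11.37 log2 in GFW, between 8.78 and 8.86 in RB, between 8.52 and 8.54 in MDSC and between 5.79 and 5.94 in GFE. The mean of 9 monocyte markers was highest in RB, between 11.37 and 11.58 log2, and lay between 8.20 and 8.23 in GFW. Nos2, the gene of iNOS, averaged 8.89 ± 0.05 log2 (SD, n = 3) in GFK and 8.28 ± 0.17 (SD, n = 3) in GFW, so the knockout label is not borne out by its probe set, whose place in the gene is not known here. The arrays are called those labelled iNOS knockout for that reason. The titles of GFW, GFE and GFK share their first part, while RB and MDSC each have their own, so for comparisons with RB or MDSC that label and the group cannot be told apart. In these bulk samples fewer cells of a type and less RNA per cell cannot be told apart.

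The 250 bases before the start of 5 members are shown because these members had the largest falls (Clec7a, Clec4a3 and Clec4e) and the called rises (Clec4a1 and Clec2i) from GFW to the cultured cells. The sequences are from RefSeq, build GRCm38.p6, each 5′ to 3′ on the strand of its gene. Capitals mark GAGGAA, the core recognised by the myeloid factor PU.1, and TTGCNNAA, a C/EBP motif, on either strand. The windows are chr6:129472780-129473029 on the minus strand for Clec7a, chr6:122952265-122952514 on the plus strand for Clec4a3, chr6:123289872-123290121 on the minus strand for Clec4e, chr6:122921598-122921847 on the plus strand for Clec4a1 and chr6:128887337-128887586 on the plus strand for Clec2i.
Clec7a: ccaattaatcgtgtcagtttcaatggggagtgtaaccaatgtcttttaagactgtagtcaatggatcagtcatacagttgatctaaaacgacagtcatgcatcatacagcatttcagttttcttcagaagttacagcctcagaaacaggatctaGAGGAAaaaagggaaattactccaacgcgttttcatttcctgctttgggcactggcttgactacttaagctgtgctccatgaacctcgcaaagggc
Clec4a3: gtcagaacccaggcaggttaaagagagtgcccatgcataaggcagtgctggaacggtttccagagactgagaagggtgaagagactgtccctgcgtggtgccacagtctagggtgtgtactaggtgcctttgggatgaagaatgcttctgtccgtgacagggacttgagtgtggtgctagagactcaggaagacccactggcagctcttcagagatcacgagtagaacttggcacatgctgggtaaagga
Clec4e: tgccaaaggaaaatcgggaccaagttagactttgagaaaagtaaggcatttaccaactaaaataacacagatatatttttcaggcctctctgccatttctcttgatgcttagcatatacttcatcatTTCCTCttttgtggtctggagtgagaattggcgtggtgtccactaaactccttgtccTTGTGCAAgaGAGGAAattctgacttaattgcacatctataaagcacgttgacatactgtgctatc
Clec4a1: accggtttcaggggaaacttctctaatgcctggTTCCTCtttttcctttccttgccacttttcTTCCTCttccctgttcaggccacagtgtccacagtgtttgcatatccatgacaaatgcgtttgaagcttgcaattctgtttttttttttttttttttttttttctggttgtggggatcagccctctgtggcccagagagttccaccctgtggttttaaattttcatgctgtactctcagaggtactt
Clec2i: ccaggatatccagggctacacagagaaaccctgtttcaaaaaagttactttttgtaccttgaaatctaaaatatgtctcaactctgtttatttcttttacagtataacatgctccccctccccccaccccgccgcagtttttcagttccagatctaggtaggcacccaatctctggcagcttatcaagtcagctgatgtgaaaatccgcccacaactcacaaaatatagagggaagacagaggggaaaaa
GAGGAA occurred once in the Clec7a window, 2 times in that of Clec4e and 2 times in that of Clec4a1, and in neither the Clec4a3 nor the Clec2i window. TTGCNNAA occurred in the Clec4e window alone among these 5. Of the 31 members, 25 had a promoter in the table. GAGGAA was present in 13 of these 25 windows (52.0%) and in 23.3% of the 26734 windows of the same length for all genes. TTGCNNAA was present in 4 of the 25 (16.0%) and in 9.56% of all windows. The AP-1 motif TGANTCA was present in 5 members (20.0%) against 6.85% of all windows, and TATAAA in 6 (24.0%) against 12.9%. Both strands were searched, matches of different motifs may overlap, and neighbouring genes that arose by duplication share sequence, so members are not independent here. A match describes the letters of the window only, and no binding was measured.

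**Figure D1:**
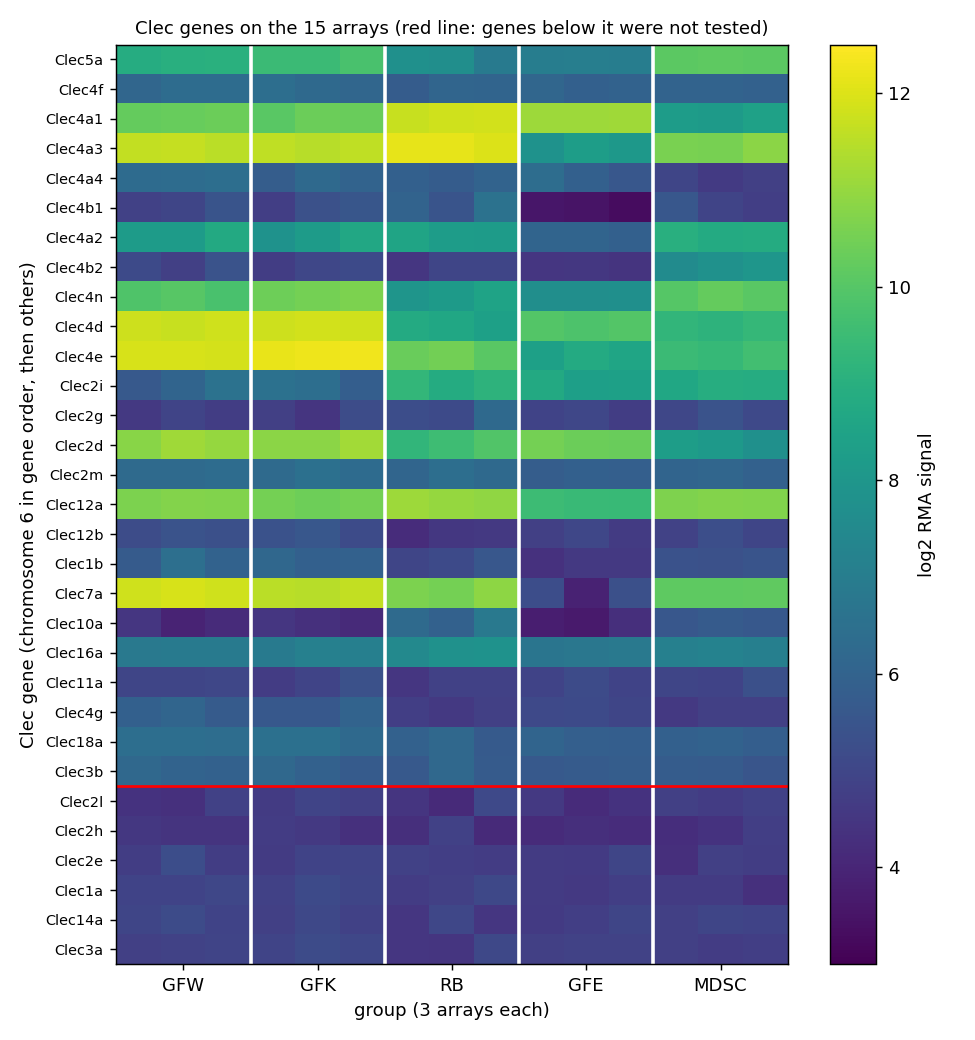
Log2 RMA signal of the 31 Clec genes (rows) on the 15 arrays (columns, 3 per group), with genes of chromosome 6 in gene order first. The 6 genes under the red line were not tested. In the GFE columns Clec7a and Clec4b1 are each darker than in the other groups, and in the MDSC columns Clec4b2 is brighter than in the other groups.

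The members fell into those near background throughout, those of level signal and those that moved widely between groups, as the heat map of all 31 genes shows. Clec14a, an endothelial protein, and Clec1a, Clec2h, Clec2l and Clec3a were near background on all 15 arrays. Clec2e was near background on 14 and above it on 1, and these 6 genes were not tested. With the line at the 30th percentile no member was near background on every array, and at the 50th percentile 8 were. Clec11a, a secreted growth factor of stem cells, passed the filter on single arrays, yet its mean was near background in all 5 groups. Another 15 tested members were above background by their mean in every group. A probe set that names both Clec9a, the dendritic cell receptor of dead cells, and Clec1b was not used. It read 7.69, 6.78 and 7.66 log2 on the GFW arrays and between 4.86 and 5.09 on the GFE arrays, and which gene it read cannot be told apart. Of the 25 tested members, 13 had group means that spanned at least 2 log2, which 2254 of all 16055 tested genes did (14%). The median span was 2.45 log2 over the tested members and 0.815 over all tested genes. GFE was the lowest group for 13 of the 25 members and the highest for none, while RB was the highest for 8, GFW for 8, GFK for 5 and MDSC for 4. The same count was not made over all tested genes, so whether these numbers are particular to the members is not known here.

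**Figure D2:**
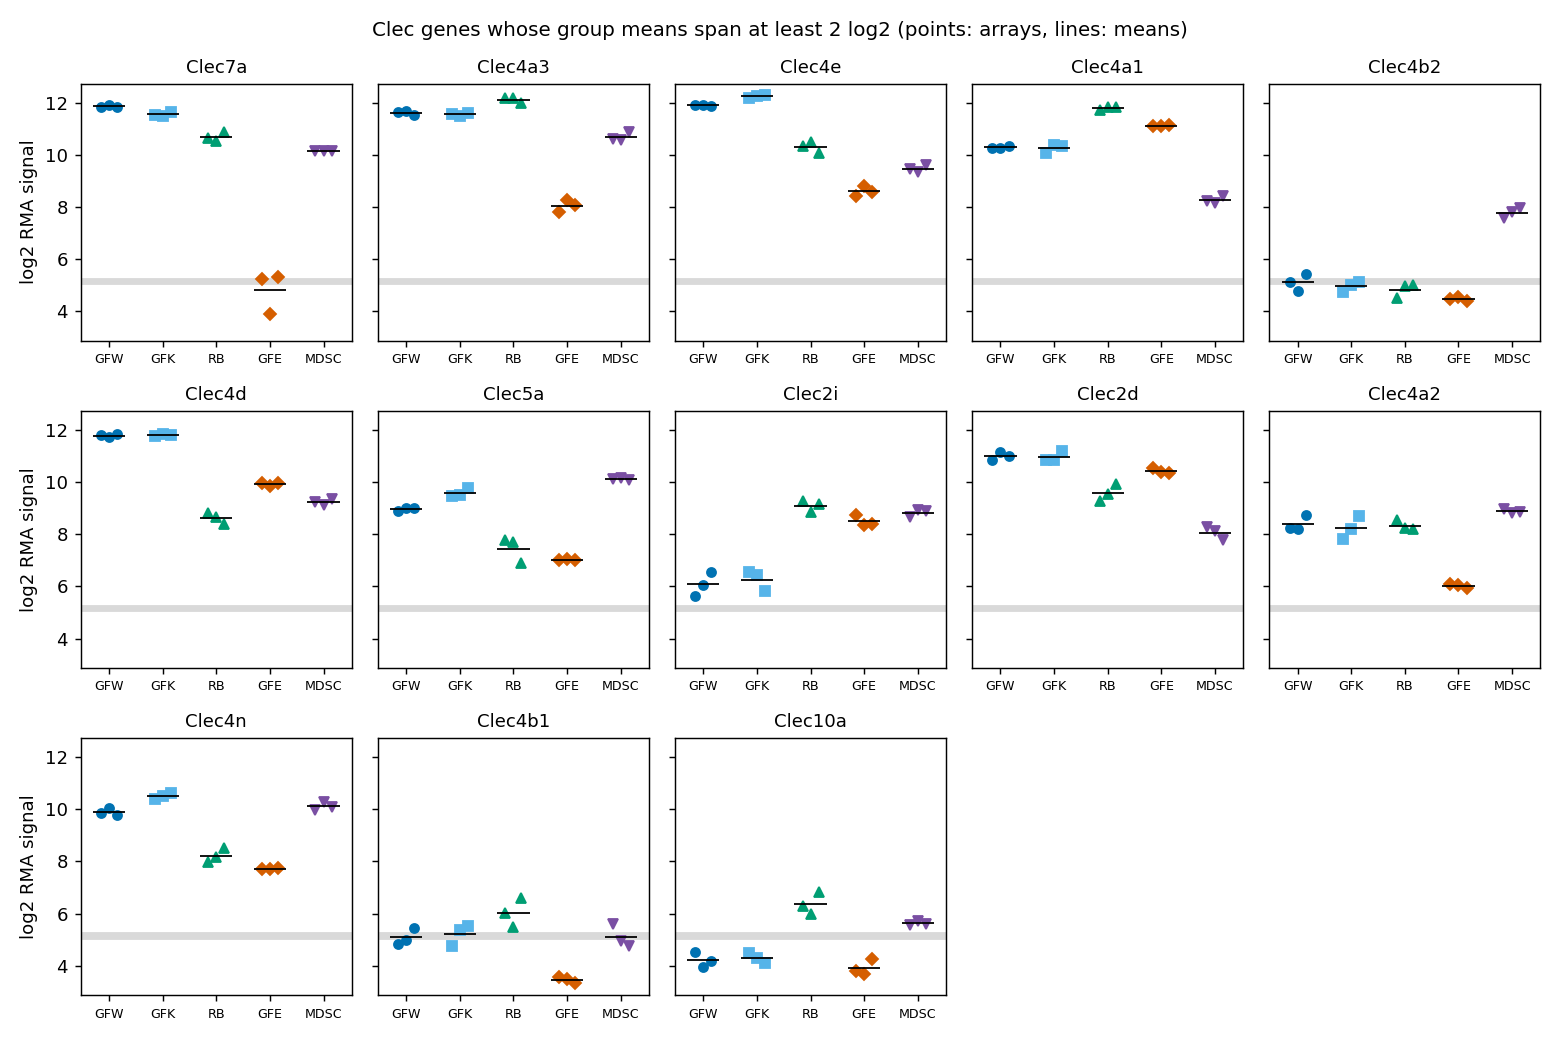
Log2 RMA signal on every array for the 13 Clec genes whose group means span at least 2 log2. Points are arrays, lines are means of 3 arrays, and the grey band is the range of the background line over the arrays. The GFE points of Clec7a lie between 3.91 and 5.30 log2, and those of all other groups for this gene lie above 10.

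Among the activating receptors, Clec7a, Clec4e and Clec4d had higher means in fresh GFW cells than in RB, GFE and MDSC, whereas Clec4n overlapped between GFW and MDSC and Clec5a was highest in MDSC. Clec7a (Dectin-1), the receptor of fungal β-glucan, read 11.83, 11.91 and 11.83 log2 on the GFW arrays, 11.53, 11.49 and 11.63 on GFK, 10.63, 10.53 and 10.88 on RB, 5.24, 3.91 and 5.30 on GFE and 10.13, 10.15 and 10.16 on MDSC. The GFE mean was near background and its 3 values lay far under those of every other group, and no 2 groups overlapped. Clec4e (Mincle), which senses mycobacterial glycolipid and damaged cells, read 11.91, 11.93 and 11.88 log2 on GFW, 12.18, 12.25 and 12.28 on GFK, 10.34, 10.49 and 10.07 on RB, 8.41, 8.80 and 8.59 on GFE and 9.46, 9.35 and 9.62 on MDSC. Here too the groups did not overlap, in the order GFK, GFW, RB, MDSC and GFE. Clec4d (MCL), the partner with which Mincle forms a receptor complex, read 11.79, 11.71 and 11.82 log2 on GFW, 11.77, 11.84 and 11.80 on GFK, 8.83, 8.67 and 8.39 on RB, 9.96, 9.86 and 9.96 on GFE and 9.24, 9.14 and 9.34 on MDSC. RB was its lowest group, in contrast to Mincle, while GFW and GFK overlapped. Clec4n (Dectin-2), a receptor of fungal mannans that signals through FcRγ, read 9.87, 10.04 and 9.78 log2 on GFW, 10.39, 10.52 and 10.63 on GFK, 7.96, 8.18 and 8.52 on RB, 7.70, 7.70 and 7.75 on GFE and 9.98, 10.27 and 10.07 on MDSC. GFW and MDSC overlapped in this gene, and RB and GFE were lower than the other groups on every array. Clec5a (MDL-1), which pairs with DAP12, read 8.89, 9.0 and 9.02 log2 on GFW, 9.47, 9.49 and 9.77 on GFK, 7.77, 7.69 and 6.89 on RB, 7.03, 7.05 and 7.01 on GFE and 10.11, 10.14 and 10.09 on MDSC. All 3 MDSC values lay above those of the other groups, and RB array 3 fell under the GFE arrays while the other RB arrays lay above them.

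The Clec4a genes, of which the DCIR gene Clec4a2 encodes an inhibitory receptor, did not move together. Clec4a1 (Dcir4) read 10.26, 10.27 and 10.35 log2 on GFW, 10.06, 10.36 and 10.34 on GFK, 11.72, 11.83 and 11.84 on RB, 11.12, 11.10 and 11.14 on GFE and 8.25, 8.17 and 8.43 on MDSC. RB was highest, GFE next and MDSC lowest, with no overlap between them. Clec4a2 (Dcir1) read 8.23, 8.21 and 8.75 log2 on GFW, 7.83, 8.20 and 8.70 on GFK, 8.55, 8.25 and 8.20 on RB, 6.07, 6.04 and 5.93 on GFE and 8.98, 8.83 and 8.84 on MDSC. GFW, GFK and RB overlapped, and only GFE lay well under the rest. Clec4a3 (Dcir3) read 11.63, 11.68 and 11.53 log2 on GFW, 11.58, 11.48 and 11.59 on GFK, 12.16, 12.16 and 11.98 on RB, 7.83, 8.27 and 8.07 on GFE and 10.59, 10.56 and 10.86 on MDSC. RB was highest and GFE lowest with no overlap, whereas GFE was second highest in Clec4a1. Clec4a4 (Dcir2) had group means between 4.8 log2 in MDSC, near background, and 6.38 in GFW. The genes of this group are close relatives, and whether a probe set reads more than 1 of them is not known here.

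The related activating genes Clec4b1 (DCAR) and Clec4b2 (DCAR1), which pair with FcRγ, had little signal in most groups. Clec4b1 read 4.85, 4.99 and 5.46 log2 on GFW, 4.77, 5.37 and 5.52 on GFK, 6.04, 5.48 and 6.59 on RB, 3.57, 3.50 and 3.33 on GFE and 5.58, 4.95 and 4.77 on MDSC. RB alone had all 3 arrays above background, the GFW, GFK and MDSC means lay about at the line, and the GFE values lay well under it. Clec4b2 read 7.57, 7.82 and 7.97 log2 on MDSC, against 5.15, 4.79 and 5.42 on GFW, 4.73, 5.02 and 5.14 on GFK, 4.50, 4.97 and 5.0 on RB and 4.49, 4.55 and 4.41 on GFE. MDSC was thus the one group with a mean above background. Clec12a (MICL), an inhibitory receptor of granulocytes and monocytes, had group means from 9.45 log2 in GFE to 11.01 in RB, and Clec12b, also inhibitory, from 4.44 in RB to 5.38 in GFK.

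The Clec2 genes encode ligands of NKR-P1 receptors, and the members Clec2d and Clec2i differed in direction between the wild-type sets. Clec2d (Clr-b), the ligand of the inhibitory receptor NKR-P1B, read 10.83, 11.13 and 11.01 log2 on GFW, 10.84, 10.86 and 11.18 on GFK, 9.26, 9.55 and 9.93 on RB, 10.52, 10.38 and 10.34 on GFE and 8.27, 8.14 and 7.77 on MDSC. MDSC was lowest without overlap. Clec2i (Clr-g), a ligand of the activating receptor NKR-P1F, read 5.64, 6.07 and 6.57 log2 on GFW, 6.54, 6.42 and 5.83 on GFK, 9.27, 8.85 and 9.14 on RB, 8.75, 8.35 and 8.41 on GFE and 8.65, 8.92 and 8.88 on MDSC. GFW and GFK stood together at the low end, and MDSC overlapped RB, while its lowest value lay under the highest GFE value. Clec2g ranged in its group means from 4.74 log2 in GFW to 5.55 in RB, where the arrays read 5.26, 5.15 and 6.24, and Clec2m from 5.87 to 6.37.

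Clec10a (MGL1), a galactose-binding lectin of macrophages and dendritic cells, was near background in 3 groups. It read 6.30, 5.97 and 6.82 log2 on RB and 5.56, 5.73 and 5.6 on MDSC, against 4.51, 3.94 and 4.18 on GFW, 4.50, 4.31 and 4.13 on GFK and 3.78, 3.67 and 4.27 on GFE. RB and MDSC did not overlap with the others. Clec16a, an intracellular protein of endosomes and mitophagy and not a cell-surface lectin receptor, ranged in its group means from 6.76 log2 in GFE to 7.71 in RB. Clec1b (CLEC-2), the podoplanin receptor of platelets, ranged from 4.50 log2 in GFE to 6.05 in GFW, and Clec4g (LSECtin), a lectin of sinusoidal endothelium, from 4.71 in RB to 5.92 in GFW. Other members differed little between groups. Clec4f, a Kupffer cell receptor, lay between 5.98 and 6.30 log2 in all group means, Clec3b (tetranectin) between 5.67 and 6.07, Clec18a between 5.91 and 6.43 and Clec11a between 4.74 and 5.07.

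After 3 days in Flt3 ligand and SCF, most tested Clec genes were lower than in fresh GFW cells. By limma, 16 of the 25 members were called lower at a Benjamini-Hochberg adjusted p under 0.05 and 2 higher, where 32.1% of all tested genes were called lower and 32.6% higher. The median difference, GFE minus GFW, was -0.57 log2 over the members and -0.10 over all tested genes. With each array centred on its own median, 63.0% of all calls were higher in place of 50.4%, and the members still gave 2 higher and 16 lower. Clec7a fell most, by 7.04 log2 (SE 0.25, limma adjusted p = 1.56e-12), and since its GFE mean was near background the fall was at least 101.2-fold. Such a bound sets the bright group's mean against, on each array of the dim group, the higher of the background line and the gene's own value. Clec4a3 was 11.8-fold lower (difference -3.56 log2, SE 0.12, limma adjusted p = 1.02e-12) and Clec4e 9.91-fold lower (-3.31, SE 0.13, limma adjusted p = 3.09e-12). Clec4a2 was 5.21-fold lower, Clec4n 4.54-fold, Clec5a 3.83-fold, Clec4d 3.61-fold and Clec12a 2.36-fold. The remaining falls were of genes near background in GFE or were small. Clec1b fell at least 1.97-fold and Clec4g at least 1.76-fold, the differences of Clec2d, Clec18a and Clec2m were -0.57, -0.51 and -0.45 log2, and Clec12b, Clec4b1 and Clec4b2 were near background in GFE, the last 2 in both groups. Clec2i was 5.32-fold higher (2.41 log2, SE 0.22, limma adjusted p = 8.04e-08) and Clec4a1 higher by 0.83 log2 (SE 0.11, limma adjusted p = 4.83e-06). Clec4a4 (-0.41 log2, adjusted p = 0.0573 by limma) and Clec4f (-0.28 log2, adjusted p = 0.0537 by limma) missed the threshold, and without GFE array 1 both were called, with limma adjusted p of 0.00405 and 0.0428. Clec3b (-0.35 log2, adjusted p = 0.0586 by limma) also missed it. With the 6 arrays compared alone in the fit, Clec3b was called (limma adjusted p = 0.0190).

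All 9 neutrophil markers were called lower in GFE than in GFW, with a median difference of -6.34 log2, and 3 of the 9 were near background in GFE. Of 9 monocyte markers 7 were called lower and 1 higher, with a median of -1.96 log2, and of 10 macrophage markers 8 were called lower and 2 higher. Over all tested genes 32.1% were called lower and 32.6% higher. Falls were not limited to these lists. Of 10 dendritic cell markers 7 were called lower and 3 higher, of 5 B cell markers 4 and 1, and of 6 T cell and NK cell markers 4 and 0. Of 5 endothelial markers 3 were called higher and 1 lower. The part of any of these lists in the Clec falls was not tested.

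Because GFW and RB carry the same labels, the cultured cells were also set against RB, a comparison chosen after the values were seen. Against RB, 14 members were called lower and 4 higher, where 22.1% of all tested genes were called lower and 28.9% higher. Clec7a was at least 44.8-fold lower than in RB, Clec4a3 16.5-fold, Clec4a2 4.98-fold, Clec4e 3.25-fold and Clec12a 2.96-fold, all called as they were against GFW. Both comparisons use the same GFE arrays. The reference set changed the direction for several members. Clec4d was 2.45-fold higher than in RB (1.29 log2, limma adjusted p = 7.24e-08) although lower than in GFW, and Clec2d was higher by 0.83 log2 (limma adjusted p = 5.11e-04). Clec4a1, at -0.67 log2, and Clec2i, at -0.59, were lower than in RB and higher than in GFW. Clec12b (0.39 log2), Clec4g (0.36) and Clec2g (-0.65) also had the opposite sign to that against GFW, at signals near background in GFE. Against GFW, Clec2g was not called (0.15 log2, adjusted p = 0.591 by limma), with both groups near background. Clec10a was at least 2.44-fold lower than in RB and did not pass against GFW, where both groups were near background. Clec5a was -0.42 log2 against RB (adjusted p = 0.0541 by limma). All 9 monocyte markers and all 9 neutrophil markers were called lower in GFE than in RB, with medians of -5.38 and -2.86 log2, and their part was not tested.

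**Figure D3:**
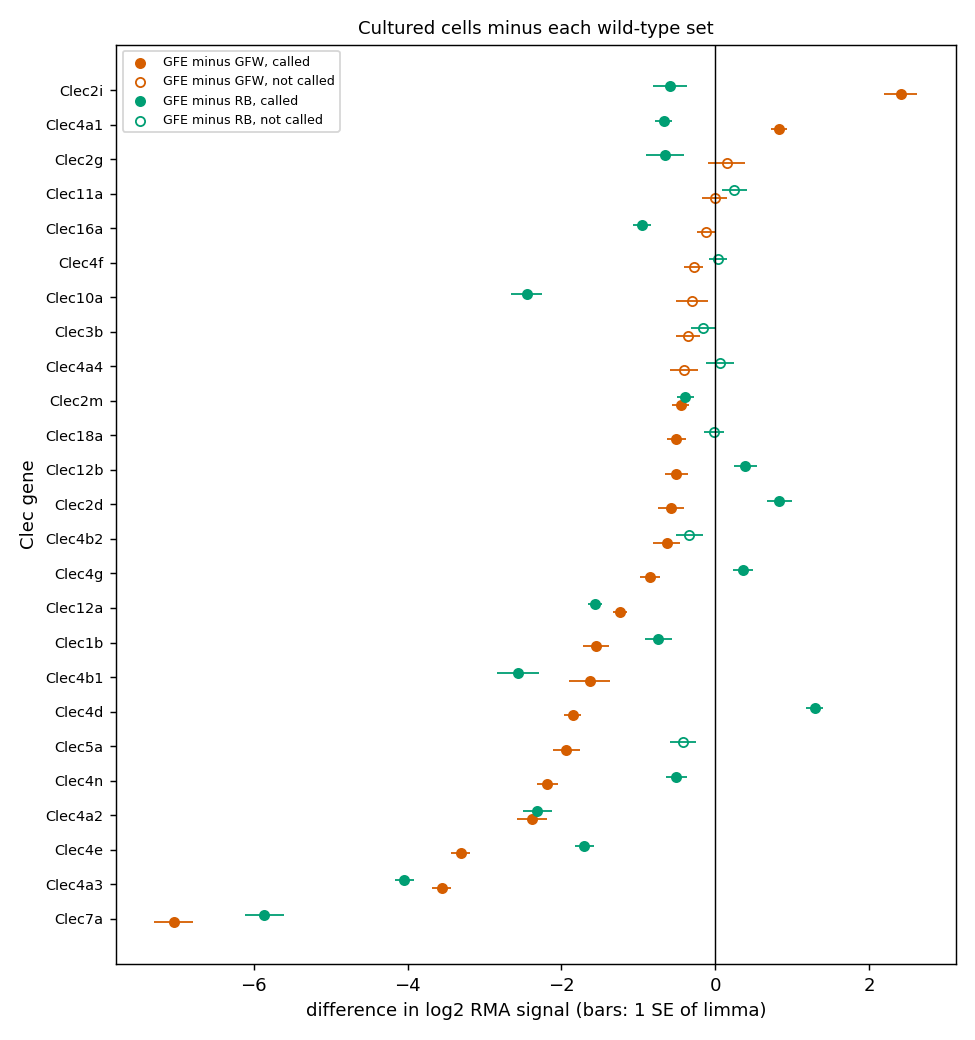
Difference in log2 RMA signal of GFE from GFW (orange) and from RB (green) for the 25 tested Clec genes. Filled points were called by limma at an adjusted p under 0.05 and bars are 1 SE. Clec7a lies at -7.04 and -5.87, while Clec4d lies at -1.85 against GFW and at 1.29 against RB.

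RB and GFW, which the labels describe alike, differed widely in these genes. Relative to GFW, 8 members were called higher and 12 lower in RB, where 23.9% of all tested genes were called higher and 26% lower. Clec4d, Clec4n, Clec4e, Clec5a and Clec7a were lower in RB, while of the other activating genes Clec4b1 was called higher and Clec4b2 was not called (-0.29 log2, adjusted p = 0.169 by limma). Clec4d was 8.86-fold lower (-3.15 log2, SE 0.11, limma adjusted p = 6.1e-12), Clec4n 3.19-fold, Clec4e 3.05-fold, Clec5a 2.86-fold and Clec7a 2.26-fold. Clec2d was 2.66-fold lower, Clec4g at least 1.66-fold, and Clec1b, Clec18a and Clec12b were called lower with differences of -0.81, -0.49 and -0.90 log2, Clec12b being near background in RB. Clec2i was 7.98-fold higher in RB (3.00 log2, SE 0.22, limma adjusted p = 1.82e-08), Clec10a at least 2.18-fold and Clec4a1 2.82-fold. Clec16a was higher by 0.84 log2, Clec4a3 by 0.49 and Clec12a by 0.32, all called by limma, the last of them not with the 6 arrays compared alone in the fit (limma adjusted p = 0.0634). The calls of Clec4b1 (0.93 log2) and Clec2g (0.80 log2), both higher from a GFW mean near background, were lost without RB array 3, with limma adjusted p of 0.0540 and 0.0616. The lower calls of Clec4a4 (-0.47 log2, limma adjusted p = 0.0389) and Clec4f (-0.32 log2, limma adjusted p = 0.0407) were lost on leaving out single arrays, with limma adjusted p up to 0.117 for Clec4a4 without RB array 2 and up to 0.183 for Clec4f without RB array 1. The replicate numbers as a block also lost both, at limma adjusted p of 0.0505 and 0.0578. Of 9 monocyte markers, 8 were called higher in RB with a median of 3.13 log2, and of 9 neutrophil markers 7 were called lower and 1 higher, with a median of -2.32 log2. The part of these markers in the Clec differences was not tested.

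The suppressor cells grown from marrow had a Clec profile of their own, with Clec4b2 and Clec5a high and Clec4a1 and Clec2d low against each of the 3 wild-type spleen groups. Against RB, 6 members were called higher and 9 lower in MDSC, where 25.3% of all tested genes were called higher and 19.5% lower. Clec4b2 was at least 6.06-fold higher (2.96 log2, limma adjusted p = 9.32e-10), Clec5a 6.32-fold (2.66 log2, SE 0.17, limma adjusted p = 3.39e-09) and Clec4n 3.69-fold. Clec4d was higher by 0.61 log2, and Clec12b was called higher at signals near background in both groups. Clec4a2 was higher by 0.55 log2 (limma adjusted p = 0.0260), a call lost without MDSC array 1 or 3 or RB array 2 or 3, with adjusted p between 0.0511 and 0.0841. Clec4a1 was 11.4-fold lower (-3.51 log2, SE 0.11, limma adjusted p = 7.37e-13), Clec2d 2.87-fold, Clec4a3 2.70-fold and Clec4a4 at least 1.75-fold. Clec4e was called lower at -0.82 log2, Clec16a and Clec12a were called lower at -0.55 and -0.32 log2. The Clec12a call was lost with each array centred on its median (-0.26 log2, adjusted p = 0.0549 by limma), which left 8 lower members. Clec10a (-0.73 log2) and Clec4b1 (-0.93 log2) were called lower with all arrays but not on leaving out some of them. Without RB array 3 the limma adjusted p was 0.0525 for Clec10a and 0.0607 for Clec4b1, and it was 0.0541 for Clec4b1 without MDSC array 3. Clec7a differed by -0.53 log2 (adjusted p = 0.102 by limma), although the arrays of both groups did not overlap, and was called with these 6 arrays alone in the fit (limma adjusted p = 0.00801). Of 9 monocyte markers 7 were called lower in MDSC than in RB, with a median of -3.90 log2, and of 10 macrophage markers 7. Of 9 neutrophil markers 4 were called higher and 4 lower. Of 7 eosinophil, basophil and mast cell markers 4 were called higher and 0 lower. The part of these markers was not tested.

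Against GFW, 6 members were called higher in MDSC and 12 lower, where 29.8% of all tested genes were called higher and 29.4% lower. With each array centred on its own median, 62.4% of all calls were higher in place of 50.4%, and 6 members were higher and 10 lower, without Clec2m and Clec3b. Clec2i was 6.60-fold higher, Clec4b2 at least 5.62-fold, Clec5a 2.21-fold and Clec10a at least 1.32-fold. Clec2d was 7.61-fold lower (-2.93 log2, limma adjusted p = 4.78e-10), Clec4d 5.80-fold, Clec4e 5.39-fold, Clec4a1 4.04-fold and Clec7a 3.26-fold. Clec4a4 was at least 2.43-fold lower, Clec4a3 1.92-fold and Clec4g at least 1.77-fold, and Clec1b and Clec18a were called lower at -0.65 and -0.52 log2. Clec4n (0.21 log2, adjusted p = 0.194 by limma) and Clec12a (0.01 log2) were not called. The calls of Clec4a2 (0.49 log2), Clec16a (0.28), Clec3b (-0.40) and Clec2m (-0.27) were lost on leaving out most single arrays, with limma adjusted p up to 0.130, 0.114, 0.126 and 0.148. Of 9 neutrophil markers 6 were called lower in MDSC and 2 higher, and of 9 monocyte markers 3 were called lower and 3 higher. Their part was not tested.

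MDSC and GFE are both cultured, in different cytokines. In MDSC 12 members were called higher than in GFE and 4 lower, where 15.4% of all tested genes were called higher and 17.4% lower. Clec7a was at least 31.0-fold higher, Clec5a 8.45-fold, Clec4a2 7.30-fold, Clec4b2 at least 6.55-fold, Clec4a3 6.13-fold and Clec4n 5.24-fold. Clec12a was 2.38-fold higher, Clec4e was higher by 0.88 log2, and Clec10a, Clec4b1 and Clec1b were called higher from GFE means near background. The bounds were at least 1.47-fold for Clec10a, 1.26-fold for Clec1b and 1.02-fold for Clec4b1, whose MDSC mean lay about at the background line. Clec16a was higher by 0.40 log2, a call lost without GFE array 1 (adjusted p = 0.0570 by limma). Clec4a1 was 7.17-fold lower (-2.84 log2, limma adjusted p = 6.41e-12), Clec2d 5.11-fold and Clec4a4 at least 1.83-fold, and Clec4d was lower at -0.68 log2. Of 9 neutrophil markers 7 were called higher in MDSC than in GFE and 1 lower, with a median of 2.81 log2, and of 9 monocyte markers 6 were called higher and 2 lower, with a median of 0.60 log2. The part of these markers was not tested. The 3 comparisons share the MDSC arrays, and the plot of their differences by gene sets them side by side.

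**Figure D4:**
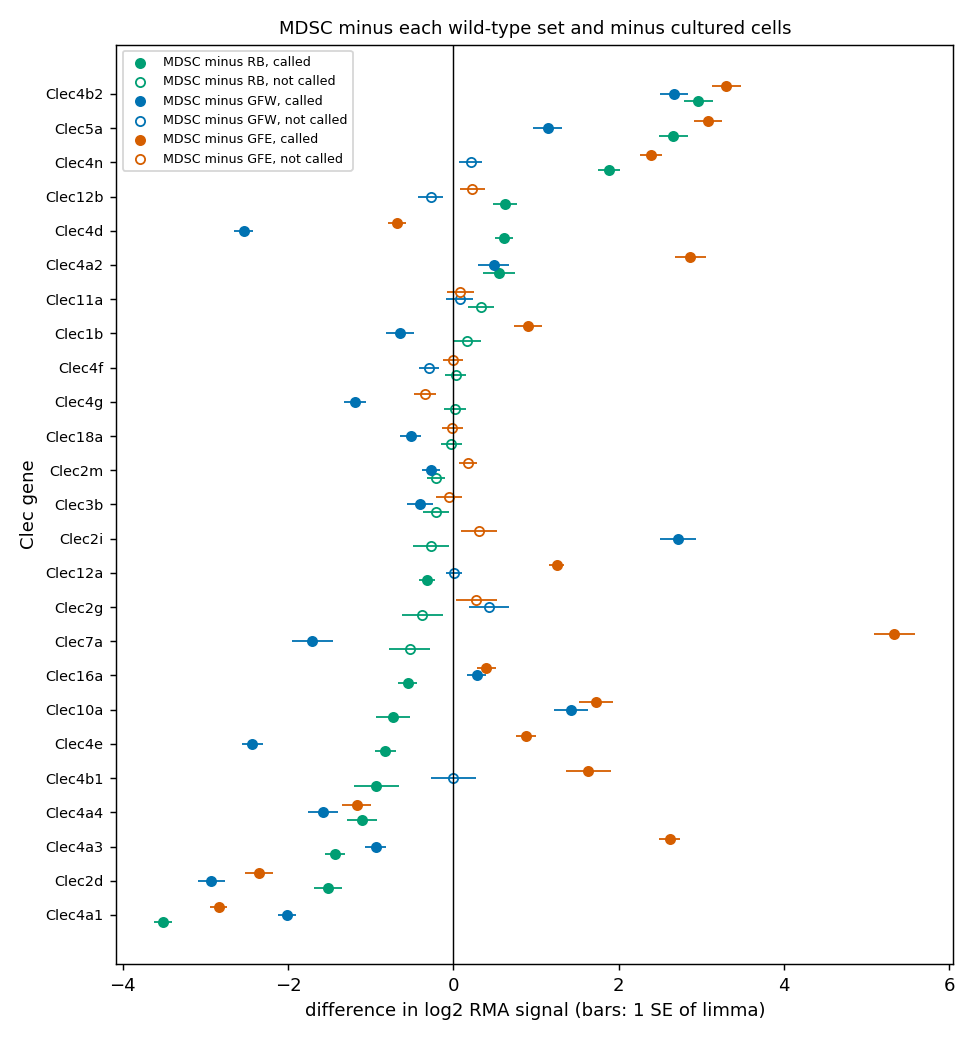
Difference in log2 RMA signal of MDSC from RB (green), GFW (blue) and GFE (orange) for the 25 tested Clec genes. Filled points were called by limma at an adjusted p under 0.05 and bars are 1 SE. Clec4b2 and Clec5a lie to the right of 0 and Clec4a1 and Clec2d to the left of it in all 3 comparisons.

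In the arrays labelled iNOS knockout, the tested members stood near GFW. By limma 1 member was called higher and none lower, where 1.18% of all tested genes were called higher and 0.268% lower. At an unadjusted p under 0.05, 3 members were higher and 1 lower. No count at an unadjusted p was made over all tested genes, here or below, so it says little about the members. Clec4n was higher by 0.61 log2 (SE 0.14, limma adjusted p = 0.0338), and all 3 GFK arrays lay above all 3 GFW arrays. The call was lost without GFK array 2 or 3 or GFW array 1 or 3, with limma adjusted p between 0.0858 and 0.135, and at 0.0988 with these 6 arrays alone in the fit. Clec5a was also 0.61 log2 higher without passing (SE 0.17, adjusted p = 0.116 by limma), but passed where RB was left out of the fit (limma adjusted p = 0.00602) and where the 9 arrays of shared title prefix alone were fitted (limma adjusted p = 0.0240). Clec4e (0.33 log2, adjusted p = 0.291 by limma), Clec7a (-0.31, adjusted p = 0.740), Clec4a4 (-0.36, adjusted p = 0.482) and Clec12a (-0.21, adjusted p = 0.409) were not called. Of 10 macrophage markers 3 were called higher in GFK, with a median of 0.66 log2, and of 9 monocyte markers 3. Of 5 B cell markers 2 were called higher, and of 7 eosinophil, basophil and mast cell markers 1. The monocyte marker Ccr2 was lower at -0.69 log2 without being called (adjusted p = 0.0638 by limma). The part of these markers in the Clec4n value was not tested.

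In the RefSeq order Clec4a1, Clec4a3, Clec4a4, Clec4b1, Clec4a2, Clec4b2, Clec4n, Clec4d and Clec4e follow each other, with no other protein-coding gene between them. These 9 neighbours are among the members counted above. Of the 9, 7 were called lower in GFE than in GFW by limma, 1 was called higher and 1 was not called. Among the 7, Clec4b1 and Clec4b2 were near background in both groups. Over all tested genes 32.1% were called lower and 32.6% higher. GFE had the lowest mean in 6 of the 9, Clec4b1 and Clec4b2 among them, a count that was not made over all genes. Against RB, 6 were called lower and 1 higher in GFE, beside 22.1% and 28.9% of all tested genes. Next to each other, Clec4a1 was higher and Clec4a3 lower in GFE than in GFW. Clec4d and Clec4e, the partners of a receptor complex at the other end of the run, were both lower in GFE than in GFW, and differed in sign between GFE and RB. Clec4b2, between Clec4a2 and Clec4n, was above background by its mean in MDSC alone.

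**Figure D5:**
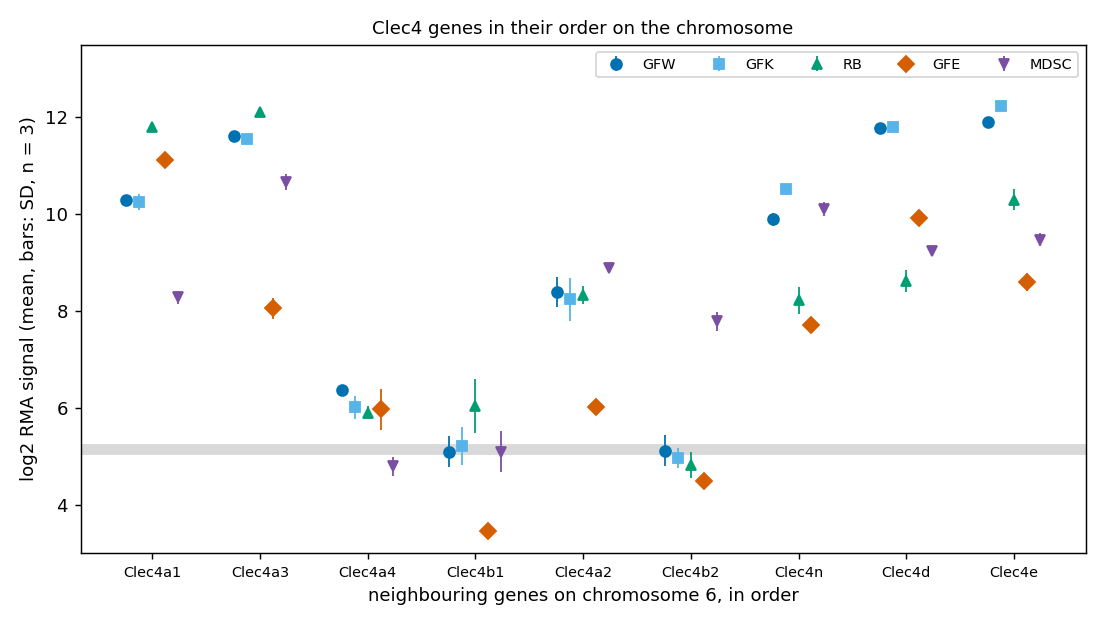
Mean log2 RMA signal (bars are SD, n = 3) of 9 neighbouring Clec4 genes of chromosome 6 in gene order, by group. The grey band is the range of the background line. Levels are to be compared within a gene, where GFE is second highest in Clec4a1 and lowest in Clec4a3.

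Of 23 listed signalling genes that serve these receptors 20 were tested. In GFE minus GFW 13 of the 20 were called lower and 4 higher by limma, against 32.1% and 32.6% of all tested genes, and the median was -0.53 log2 against -0.10 over all tested genes. The adaptors Tyrobp (-1.95 log2), Hcst (-1.52) and Fcer1g (-1.15) fell, as did Syk (-1.41) and Card9 (-1.46). Cblb, a ubiquitin ligase that restrains Dectin signalling, rose by 1.23 log2, and Ptpn11 by 0.75. Against RB 14 of the 20 were called lower in GFE and none higher by limma, against 22.1% and 28.9% of all tested genes, with 1 higher at an unadjusted p under 0.05. RB had 10 called higher and 6 lower than GFW, against 23.9% and 26% of all tested genes, led by Cblb (3.04 log2), Rel (1.22) and Malt1 (1.04) above and Hcst (-0.88) and Vav1 (-0.83) below. In MDSC 13 were called lower than in RB and none higher by limma, against 19.5% and 25.3% of all tested genes, with 1 higher at an unadjusted p under 0.05. The lower genes included Cblb at -1.98 log2, Rel at -1.59, Syk at -1.43 and Vav3 at -1.32. Against GFW, MDSC had 4 called higher and 12 lower, against 29.8% and 29.4% of all tested genes, with Hcst at -1.84 log2 and Syk at -1.33. Against GFE, MDSC had 5 of 20 called higher and 2 lower, beside 15.4% and 17.4% of all tested genes, so this count says little about the list. Malt1 was at 1.67 log2, Tyrobp at 1.41 and Card9 at 1.38. In GFK, Cblb alone was called, higher by 0.45 log2.

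Of the 5 tested genes of known ligands and partner receptors, 1 was called in GFE minus GFW and in RB minus GFW, 2 in MDSC minus RB, and 3 in MDSC minus GFW and in MDSC minus GFE. Over all tested genes, 32.6% were called higher and 32.1% lower in GFE minus GFW, and 23.9% and 26% in RB minus GFW. The shares were 25.3% and 19.5% in MDSC minus RB, 29.8% and 29.4% in MDSC minus GFW, and 15.4% and 17.4% in MDSC minus GFE. With 5 genes these counts say little about the list. Pdpn, the podoplanin bound by CLEC-2, was called lower in GFE than in GFW (-0.44 log2) and no other was called in that comparison by limma, nor had an unadjusted p under 0.05. Pdpn was called higher in MDSC than in RB (0.43 log2). Klrb1f, the receptor of the Clr-g ligand, was called higher in RB than in GFW (1.21 log2), in MDSC than in GFW (0.63) and in MDSC than in GFE (1.02). Pdpn was also higher in MDSC than in GFE (0.74 log2). Klrb1b, the receptor of Clr-b, was called lower in MDSC than in GFW (-0.72 log2) and than in GFE (-0.80 log2), with an MDSC mean near background.

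Of the C-type lectin genes without a Clec name 19 were tested, and 13 were called lower and 3 higher in GFE than in GFW by limma, against 32.1% and 32.6% of all tested genes. Klra17 fell at least 31.9-fold, Klra2 by 4.76 log2 and Mrc1, the macrophage mannose receptor, at least 4.77-fold, while Cd69, an early activation antigen, rose by 4.44 log2 and Cd93 by 2.0. RB had 7 called higher than GFW and 6 lower, against 23.9% and 26% of all tested genes, with Klra17 at least 28.6-fold lower, Cd93 higher by 2.26 log2 and Thbd by 1.64. MDSC had 5 called higher than RB and 3 lower, which is near the 25.3% and 19.5% of all tested genes, with Mrc1 higher by 4.38 log2 and Mgl2, the close relative of Clec10a, at least 8.11-fold higher, while Klra2 fell by 5.30 log2. Against GFE, MDSC had 11 called higher and 2 lower, against 15.4% and 17.4% of all tested genes, with Mrc1 at least 57.6-fold higher and Cd69 at -3.51 log2. Against GFW, MDSC had 8 called higher and 5 lower, against 29.8% and 29.4% of all tested genes, and in GFK the called gene was Cd69, higher by 1.40 log2.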

How the data were processed

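RNA of 15 mouse samples was measured on Affymetrix arrays, with cRNA made from 6 ug of total RNA per the labels' protocols. The deposited values are log2 signals per probe set, made by the authors with RMA in the oligo package per the submitters' processing notes, and the sources used here give no versions. RMA sets all arrays to 1 distribution, so differences are relative to the other genes of the array. Array medians lay between 5.52 and 5.72 log2, and the number of arrays limits the precision. Probe sets were named through the platform's annotation. Of 41345, 23521 had 1 symbol, 1814 several and 16010 none, and a gene with several probe sets was read by the one with the highest mean over 15 arrays. The members and all lists were chosen with earlier results of these data known. Values in every array are given for members whose group means spanned at least 2 log2, and differences for the largest called members. Of each other list, called genes with large differences are named.

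A model with a mean for each group was fitted to all 15 arrays at once (lmFit, eBayes, 2-sided tests; limma 3.58.1, R 4.3.3), with Benjamini-Hochberg adjustment over 16055 genes and calls at 0.05. The steps were tested on simulated data. Alternatives were median scaling, other filters and percentiles, the mean of a gene's probe sets, the 6 arrays compared, a replicate block, an intensity trend, treat against 1.5-fold, leaving out each array, the RB arrays or other title prefixes, and, added after seeing the data, the RB arrays in place of GFW and a percentile over probe sets with 1 symbol. Figures were drawn with matplotlib 3.10.9.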

Additional observations from a re-analysis of the deposited data

How the results depend on the processing

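Counts of Clec members called, higher and then lower, moved by over 1.5 times under few settings. Testing against a 1.5-fold change (treat) gave 0 higher in GFK minus GFW, 1 and 10 in GFE minus GFW, 3 and 6 in RB minus GFW, and 3 and 4 in MDSC minus RB. The higher count of GFK minus GFW was 0 with the 6 arrays compared, and 2 without RB in the fit or with the 9 arrays of 1 title prefix. The higher count of RB minus GFW was 5 with the filter at the 60th percentile. Leaving out 1 array at a time gave 0 to 1 higher in GFK minus GFW, 2 and 16 to 18 in GFE minus GFW, 6 to 8 and 10 to 12 in RB minus GFW, 5 to 6 and 7 to 9 in MDSC minus RB, 4 to 5 and 10 to 12 in MDSC minus GFW, and 11 to 12 and 4 in MDSC minus GFE. Members near background on all arrays numbered 0 at the 30th percentile and 8 at the 50th.

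With RB in place of GFW, an alternative added after seeing the data, GFE had 4 higher and 14 lower members, and the sign turned for Clec12b (0.39 log2), Clec2d (0.83), Clec2g (-0.65), Clec2i (-0.59), Clec4a1 (-0.67), Clec4d (1.29) and Clec4g (0.36). Of these, Clec2g was not called against GFW. The cause was not tested. Centring each array on its median shifted the median of all genes by 0.135 log2 in GFE minus GFW and 0.122 in MDSC minus GFW, and moved the higher share of all calls from 50.4% to 63.0% and from 50.4% to 62.4%. The members' counts for GFE minus GFW stayed at 2 and 16. Deviations of samples with the same replicate number correlated between -0.086 and 0.047. In RB minus GFW all 3 RB arrays correlated best with the GFW array of their own number, at 0.025 to 0.037. Such weak values do not settle whether the numbers pair samples. With the replicate block, RB minus GFW had 8 and 10 calls, and the other member counts were those without it. Treat asks for more than a difference from 0, and low signals limit calls of the dim members.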
